A study of Homo sapiens with 8 samples.

Results

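The unfolded protein response and the integrated stress response were followed through 37 genes, chosen as a named list of sensors, transcription factors, feedback genes, chaperones and degradation factors. All probe sets whose platform symbol was 1 of these names were taken, which gave 120 of the 45253 probe sets with 1 gene symbol, and 37 of 18239 genes. By role the list held 3 sensors, 6 transcription factors, 9 feedback and target genes of the integrated stress response, 15 folding factors of the endoplasmic reticulum (ER) and 4 genes of ER-associated degradation. Of the 37 genes, 27 had 2 or more probe sets and 10 had 1.

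The cells were NS-SV-AC, a single immortalised line described as acinar, meaning that it derives from the secretory units of a human salivary gland. In the control arm cells received bovine serum albumin (BSA), and in the other arm the inflammatory cytokine TNF-α at 20 ng/ml. RNA was taken at 2, 6, 12 and 24 h in both arms, and each of the 8 combinations was measured on 1 Affymetrix array, from 10 ng of total RNA. No untreated time 0 was measured, so a change with time is given against the 2 h array of the same arm. Levels are log2 values, 1 unit is a 2-fold difference, and each gene is represented by its brightest probe set. Probe sets differ in how brightly they bind, so levels are compared between arrays and not between genes.

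Proteins that enter the secretory pathway fold in the ER, and unfolded protein there is sensed by IRE1 (gene ERN1), PERK (EIF2AK3) and ATF6. IRE1 splices XBP1 mRNA, PERK phosphorylates the initiation factor eIF2, which slows translation while favouring that of ATF4, and ATF6 is cleaved into a transcription factor. ATF4 is also reached from other eIF2 kinases that answer to amino acid shortage, viral RNA or haem deficiency, and that wider circuit is the integrated stress response. Splicing, phosphorylation and cleavage are not seen by these arrays, which measure RNA level alone. Secretory acinar cells are known for a large ER and a heavy folding load.

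The factors bind short DNA elements, and the promoters of a few members are shown for the elements they hold. RefSeq promoter windows on GRCh38.p14, running from 250 bases before to 50 bases after a gene start, were found for 36 of the 37 members, without PDIA3. Capitals mark the matched element in each run below, written 5′ to 3′ on the strand of the gene, and all 6 stretches lie upstream of the start. HSPA5 and XBP1 (both minus strand) hold the ER stress response element, HERPUD1 (plus strand) its second form, and ATF3 (plus), ASNS (minus) and CHAC1 (plus) the C/EBP-ATF element of ATF4 targets, which in CHAC1 runs in the reverse orientation.
HSPA5, chr9:125241356-125241445: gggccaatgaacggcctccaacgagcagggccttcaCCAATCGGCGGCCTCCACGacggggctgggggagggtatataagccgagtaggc
XBP1, chr22:28800570-28800659: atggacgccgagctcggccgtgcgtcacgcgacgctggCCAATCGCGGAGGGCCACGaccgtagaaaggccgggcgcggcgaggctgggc
HERPUD1, chr16:56931985-56932074: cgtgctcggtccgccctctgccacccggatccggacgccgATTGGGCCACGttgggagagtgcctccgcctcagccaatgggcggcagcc
ATF3, chr1:212565175-212565264: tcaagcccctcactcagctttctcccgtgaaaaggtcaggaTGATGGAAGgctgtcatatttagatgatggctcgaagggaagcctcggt
ASNS, chr7:97872428-97872517: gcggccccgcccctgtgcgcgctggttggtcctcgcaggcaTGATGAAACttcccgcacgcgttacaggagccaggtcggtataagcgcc
CHAC1, chr15:40953221-40953310: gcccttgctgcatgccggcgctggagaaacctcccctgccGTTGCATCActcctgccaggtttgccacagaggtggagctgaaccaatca

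The ER stress response element, CCAAT and CCACG with 9 bases between them, searched like the others on both strands, was in the windows of 8 of 36 members (22.2%) and of 25 of all 27305 gene symbols in the table (0.0916%). The 8 were XBP1 and 7 folding genes, HSPA5, HSP90B1, PDIA6, CRELD2, CALR, CANX and ERO1B. Its second form, ATTGG and CCACG with 1 base between them, was in HERPUD1, SDF2L1 and HYOU1 (8.33% of members, 0.0696% of all symbols). The unfolded protein response element, TGACGTGG, was in HYOU1 alone (2.78% against 0.927%), where it overlaps a copy of the second form. The C/EBP-ATF element, TGATGNAAN, was in ATF3, ASNS, CHAC1, HERPUD1 and CREB3L2 (13.9% against 4.45%), and in CREB3L2 it lay after the start. These are letter matches in a fixed window and no binding was measured.

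Of the 8 arrays, TNF-α at 24 h stood apart. The gap between the 3′ and 5′ probe sets of GAPDH was 6.28 there and 0.20 to 0.37 on the other 7. For ACTB the gap was 6.88 there, 3.47 with BSA at 24 h and 2.59 to 3.09 on the remaining 6. The mean correlation of the TNF-α 24 h array with the others over all genes was 0.925, against 0.968 (BSA at 24 h) to 0.978. Every value at TNF-α 24 h rests on this array, and the tests described first leave it out. The cytokine reached the cells: NFKBIA, an NF-κB inhibitor that NF-κB induces, read 7.79 with BSA and 11.21 with TNF-α at 2 h, and TNFAIP3, another NF-κB target, read 3.34 and 11.21. The acinar markers were mostly near background. AQP5, the water channel of acinar cells, read 3.88 to 4.13 on the 7 arrays and STATH 2.81 to 3.10, beside a lower quartile of 3.76 over the mean levels of all genes. KRT18, a keratin of simple epithelia, read 9.84 to 10.33 on the 7 arrays. Its partner KRT8 read 8.59 to 8.91 on the 6 arrays of 2 to 12 h, 6.37 with BSA at 24 h and 2.72 with TNF-α at 24 h, and its part in the 24 h results below was not tested. On the 7 arrays EPCAM and CDH1 read no more than 3.53, and the fibroblast markers DCN and LUM read 6.82 to 8.20. With TNF-α at 24 h EPCAM, CDH1, DCN and LUM read 3.57, 4.37, 8.80 and 8.48. COL1A1 and COL1A2 stayed under 4 on every array. The RNA came from whole cultures, so fewer cells of a kind and less RNA per cell cannot be told apart.

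The first question was how the genes moved with time in each arm. At 12 h most members read below their 2 h level in both arms, and with BSA many read above it at 24 h. At 12 h 4 of 37 members were above 2 h with BSA and 3 with TNF-α, where 8015 and 8536 of all 18239 genes were. With BSA, 19 of 37 members were lowest at 12 h and 28 (75.7%) were highest at 24 h. Over all 18239 genes 22.5% were lowest at 12 h and 30.0% highest at 24 h. With TNF-α, 14 of 37 members (37.8%) were highest at 2 h, against 14.5% of all genes, and 18 (48.6%) at 24 h, on the array that stood apart, against 55.4%.

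**Figure D1:**
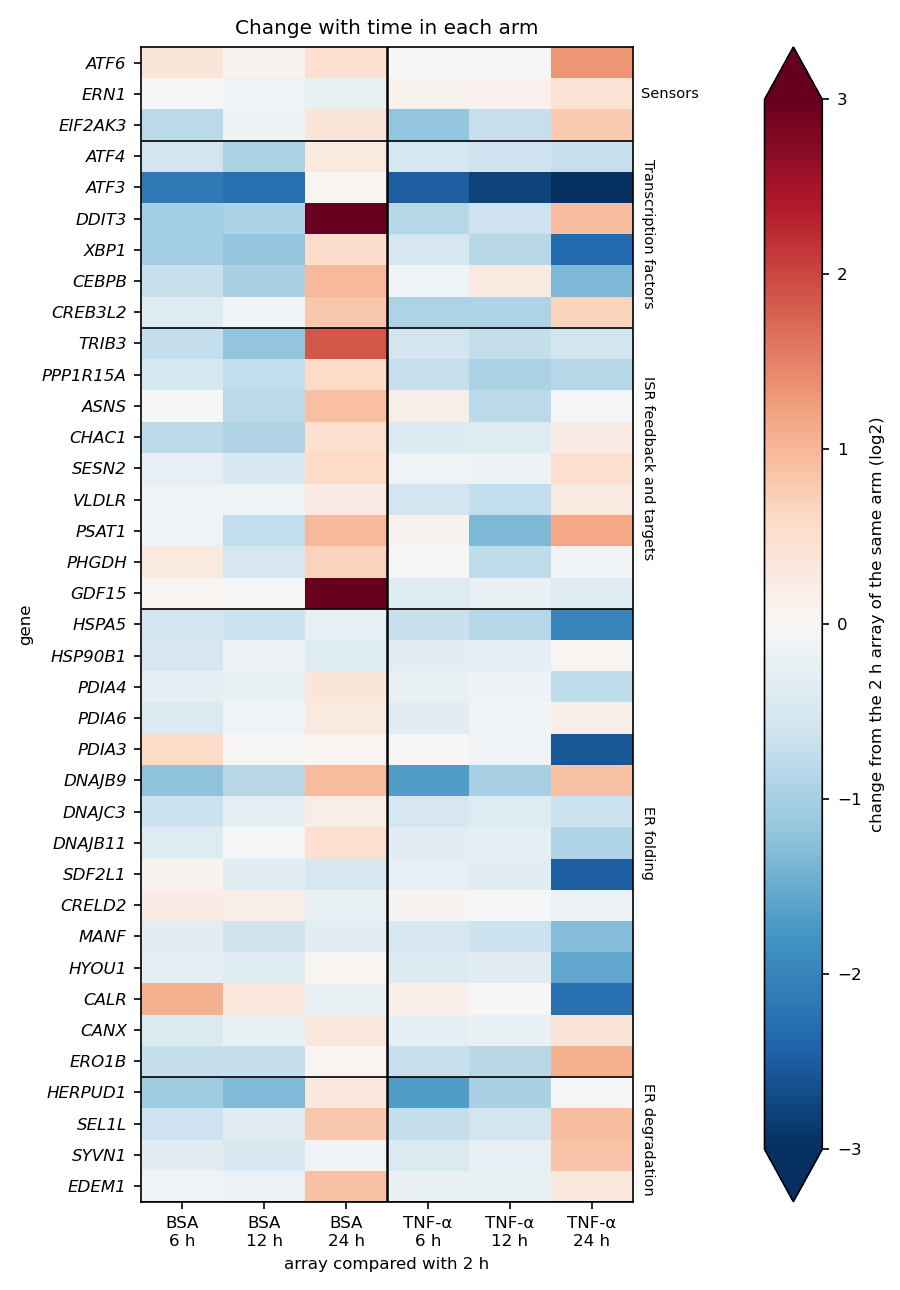
Heat map of the log2 change of each of the 37 genes from the 2 h array of the same arm, with BSA on the left and TNF-α on the right, grouped by role; colours end at ±3, which GDF15 with BSA (4.43) and ATF3 with TNF-α (−3.32) at 24 h pass. Blue prevails at 6 and 12 h in both arms, red at 24 h with BSA, and the TNF-α 24 h column is mixed.

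The change from 2 h could be tested at the early times, because both arms were measured at 2, 6 and 12 h. In a limma fit of these 6 arrays with treatment and time as factors, the change from 2 to 6 h over both arms passed an adjusted p under 0.05 (Benjamini-Hochberg over all genes) for 11 of 37 members, all 11 lower. Of all genes, 3.1% were called lower and 2.13% higher in this comparison, which was added after the values had been seen. The median over the 37 members was −0.38, against 0.00 over all genes. The p-values measure only the spread between these arrays, for which no label gives separate cultures, and the spread may be technical.

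ATF3, a stress-induced transcription factor that ATF4 and NF-κB can both induce, had the largest fall on the brightest probe sets. It read 6.99, 4.84, 4.74 and 7.05 with BSA at 2, 6, 12 and 24 h, and 8.42, 5.94, 5.64 and 5.10 with TNF-α. Both 2 h arrays were above all 4 arrays of 6 and 12 h, and in the BSA arm the 24 h level was back at that of 2 h. From 2 to 6 h ATF3 fell by 2.31 ± 0.14 (SE, 2 arrays per time, limma adjusted p = 0.0169). As the mean of its 7 probe sets it fell by 0.55, still passing, which was less than DNAJB9 (−1.01) and HERPUD1 (−1.03) in the same setting.

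DNAJB9, an ER co-chaperone that holds IRE1 inactive, read 7.57, 6.36, 6.74 and 8.53 with BSA and 7.88, 6.21, 6.88 and 8.75 with TNF-α. It fell by 1.44 ± 0.13 from 2 to 6 h (limma adjusted p = 0.0192), and its levels at 12 h lay between those of 6 and 2 h in both arms. HERPUD1, a membrane protein that recruits the ubiquitin ligase complex of ER-associated degradation, read 9.58, 8.51, 8.25 and 9.91 with BSA and 9.33, 7.66, 8.35 and 9.33 with TNF-α. It fell by 1.37 ± 0.22 (limma adjusted p = 0.0331), with both 2 h arrays above the arrays of 6 and 12 h. EIF2AK3, the kinase PERK, read 7.14, 6.34, 6.99 and 7.50 with BSA and 7.57, 6.37, 6.88 and 8.34 with TNF-α, and fell by 0.997 ± 0.14 (limma adjusted p = 0.0281). In both arms its level was lower at 6 h than at 12 h.

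DDIT3, which encodes the stress factor CHOP, read 4.94, 3.92, 3.99 and 8.04 with BSA and 5.04, 4.18, 4.43 and 5.95 with TNF-α, and fell by 0.94 ± 0.11 from 2 to 6 h (limma adjusted p = 0.0208). XBP1, the factor made from the mRNA that IRE1 splices, read 8.61, 7.59, 7.42 and 9.13 with BSA and 8.88, 8.37, 8.05 and 6.54 with TNF-α, and fell by 0.76 ± 0.14 (0.0425). In both genes the 2 h arrays were above the 6 and 12 h arrays of their own arm. The other 5 that fell were ERO1B, an oxidase that renews protein disulphide isomerases, SEL1L, the scaffold of the ER ubiquitin ligase SYVN1, PPP1R15A (GADD34), the phosphatase subunit that reverses eIF2 phosphorylation, HSPA5 (BiP), the main Hsp70 chaperone of the ER, and DNAJC3, a co-chaperone of BiP. Their changes lay between −0.68 and −0.57. With each gene's probe sets averaged in place of the brightest, DDIT3 (−0.91), SEL1L (−0.26) and DNAJC3 (−0.15) no longer passed, nor did DNAJC3 with a variance trend (limma adjusted p = 0.0578).

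By role, the change from 2 to 6 h passed for 1 of 3 sensors, 3 of 6 transcription factors, 1 of 9 integrated stress response genes, 4 of 15 folding genes and 2 of 4 degradation genes, each lower. The members' medians by role were 0.05, −0.71, −0.18, −0.36 and −0.52. CALR, the lectin chaperone calreticulin, went the other way in the values without passing, at 5.45 and 6.52 with BSA and 5.93 and 6.09 with TNF-α at 2 and 6 h. Leaving out either 6 h array left 0 genes called anywhere, and leaving out any other array or the 12 h pair gave 8 (without TNF-α 2 h) to 14 members.

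From 2 to 12 h over both arms 5 members fell, against 0.367% of all genes called lower and 0.241% called higher, and again 0 members rose. ATF3 fell by 2.51 ± 0.14 (limma adjusted p = 0.0142), PPP1R15A by 0.84 ± 0.10 (0.0431), ASNS by 0.80 ± 0.09 (0.0462), ERO1B by 0.76 ± 0.09 (0.0462) and HSPA5 by 0.75 ± 0.09 (0.0486). This comparison shares its 2 h arrays with the one before. ASNS, asparagine synthetase and a standard ATF4 target, read 10.50, 10.52, 9.71 and 11.41 with BSA and 10.48, 10.65, 9.66 and 10.44 with TNF-α, so that its decrease lay between 6 and 12 h in both arms. HSPA5 read 11.65, 11.11, 10.997 and 11.40 with BSA and 11.83, 11.17, 10.97 and 9.84 with TNF-α, with 6 and 12 h below 2 h throughout. PPP1R15A read 6.11, 5.57, 5.36 and 6.68 with BSA and 6.64, 5.94, 5.70 and 5.79 with TNF-α.

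PSAT1 and PHGDH are enzymes of serine synthesis. PSAT1 read 10.52, 10.40, 9.78 and 11.48 with BSA and 10.34, 10.44, 8.99 and 11.51 with TNF-α, a 12 h change of −1.04 ± 0.20 that did not pass (limma adjusted p = 0.106). At 6 h with BSA its 8 probe sets differed from 2 h by −0.11 to −0.86, while the 4 of ASNS lay between −0.08 and 0.02. PHGDH changed by −0.64 ± 0.11 (0.0823). In the integrated stress response list 8 of 9 members had an unadjusted p under 0.05 for 12 h, all lower, beside 1367 of 18239 genes lower at that level. The 12 h count depended on single arrays: it was 0 without either 6 h array, 15 without BSA 2 h, 3 without TNF-α 2 h, 2 without BSA 12 h and 1 without TNF-α 12 h. As means of probe sets ATF3 (−0.57) and ERO1B (−0.31) did not pass. Without the dimmest 25% of genes HSPA5, ERO1B and ASNS had adjusted p of 0.0519, 0.0517 and 0.0517 in limma, and HSPA5 had 0.0529 after renewed quantile normalisation.

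A trend in log2 hours was also fitted. In a limma fit of 7 arrays, without TNF-α 24 h, 0 members had a slope past the threshold in BSA, in TNF-α or in their difference, with 1, 3 and 1 members at an unadjusted p under 0.05. Over all 18239 genes 0, 2 and 0 passed, the 2 being 0.011%, and 1278, 847 and 618 had an unadjusted p under 0.05. The BSA slope spanned 2 to 24 h and the TNF-α slope 2 to 12 h, so their difference compares unlike spans. A single slope also cannot describe a fall followed by a rise.

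At 24 h with BSA there was 1 array and no test. Against 2 h, 3 of 37 members were at least 2-fold higher and 0 at least 2-fold lower, where 2.54% of all genes were higher and 1.83% lower. GDF15, a secreted stress cytokine induced by ATF4 and CHOP, read 3.06, 3.12, 2.99 and 7.49 with BSA and 3.31, 2.92, 3.08 and 2.93 with TNF-α, so BSA at 24 h was the 1 array with a level above 3.31. A pair of further GDF15 probe sets, outside the rule because the platform lists them under 2 identifiers, were 4.55 and 3.13 higher at 24 h than at 2 h with BSA. DDIT3 was 3.10 higher, with its other probe set at 2.96. TRIB3, a pseudokinase that ATF4 and CHOP induce and that restrains both, read 8.90, 8.18, 7.73 and 10.76 with BSA and 8.55, 7.98, 7.83 and 7.996 with TNF-α, and its 2 probe sets were 1.84 and 1.86 higher at 24 h than at 2 h.

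**Figure D2:**
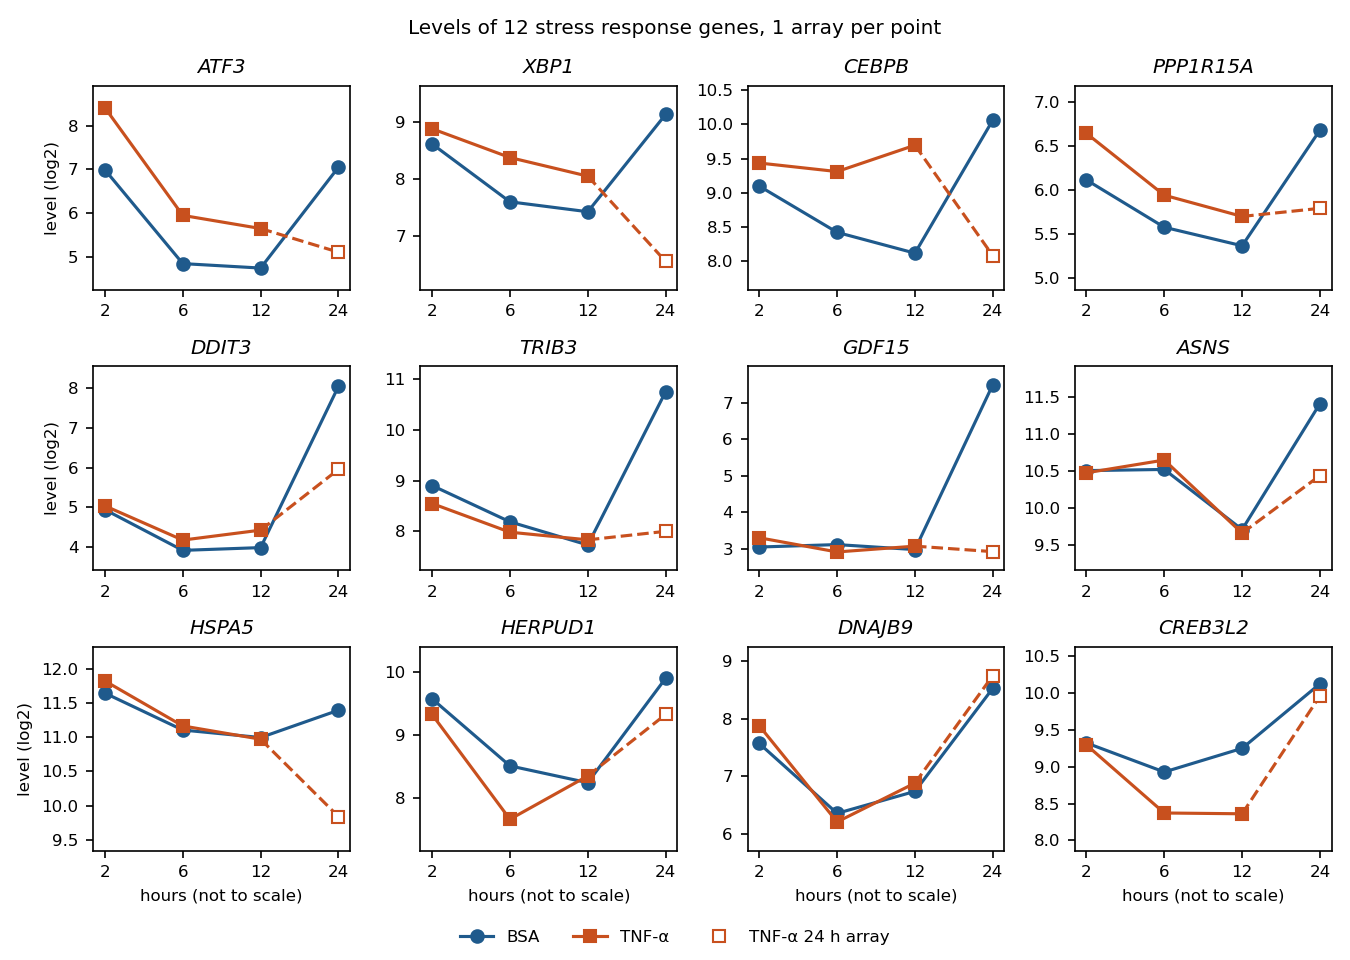
Log2 levels of 12 members at 2, 6, 12 and 24 h, with 1 array per point, BSA in blue and TNF-α in orange; the open square is the TNF-α 24 h array, joined by a dashed line, and the hours are evenly spaced. GDF15 with BSA is near 3 until 12 h and reads 7.49 at 24 h, and ATF3 with TNF-α lies above BSA at 2, 6 and 12 h.

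Against 12 h, a comparison added after the values had been seen and sharing the 24 h array with the last, 17 of 37 members were at least 2-fold higher at 24 h with BSA and 0 were lower, beside 2.63% and 2.04% of all genes. The median over members was 0.76 and over all genes 0.00. By role the counts at least 2-fold higher were 0 of 3 sensors, 5 of 6 transcription factors, 8 of 9 integrated stress response genes, 1 of 15 folding genes and 3 of 4 degradation genes, with medians of 0.43, 1.83, 1.38, 0.40 and 1.10. As means of probe sets the count was 15. The largest differences were in GDF15 (4.51), DDIT3 (4.05) and TRIB3 (3.03).

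Among the transcription factors, ATF4, whose protein is set largely at translation, read 11.10, 10.55, 10.14 and 11.39 with BSA and was 1.25 higher at 24 than at 12 h. ATF3 was 2.32 higher on its brightest probe set and 0.07 to 0.50 on the other 6, CEBPB, a partner of ATF4, 1.95 and XBP1 1.71. CREB3L2, an ER membrane factor of secretory capacity, was 0.88 higher and was the 1 factor under 2-fold. Of the integrated stress response genes ASNS and PSAT1 were each 1.70 higher, with all 4 probe sets of ASNS between 1.70 and 2.03 and all 8 of PSAT1 between 1.58 and 2.05. CHAC1, which degrades glutathione, was 1.38 higher, PPP1R15A 1.31, PHGDH 1.22 and SESN2, a sestrin that restrains mTORC1, 1.06. VLDLR, a lipoprotein receptor gene that ATF4 can induce, was 0.36 higher.

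On the brightest probe sets the folding genes differed less over the same interval. DNAJB9 was 1.79 higher with BSA at 24 than at 12 h, and the other 14 lay between −0.51 (CALR) and 0.76 (ERO1B). HSP90B1 (GRP94), the Hsp90 of the ER, differed by −0.21, and its 7 probe sets all lay between −0.30 and −0.07. CANX, the lectin chaperone calnexin, differed by 0.53, with 9 of 9 probe sets above 0. HSPA5 differed by 0.40 on its brightest probe set, the lowest of its values, and by 0.61, 1.33, 1.40, 1.62 and 1.66 on the other 5. Among the degradation genes HERPUD1 was 1.66 higher, SEL1L 1.14, EDEM1, which hands misfolded glycoproteins to degradation, 1.05, and the ligase SYVN1 0.35. EDEM1 rests on the brightest probe set, since its others lay between −0.10 and 0.10. The others of SEL1L differed by 0.82, 0.12 and −0.12, the 0.12 and −0.12 on probe sets that read 4.43 or less on every array.

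The second question was what TNF-α changed. Over 2, 6 and 12 h ATF3 was the 1 member of 37 that passed, and it rose. Of all genes 0.318% were called higher and 0.0493% lower in the same limma fit, and the median over members was 0.00. ATF3 was 1.42, 1.11 and 0.91 above BSA at 2, 6 and 12 h, a mean of 1.15 ± 0.11 (SE, 3 pairs of arrays, limma adjusted p = 0.0305), and higher in 3 of 3 pairs. Across times the arms overlapped, since BSA at 2 h (6.99) was above TNF-α at 6 h (5.94). The call rests on the brightest of 7 probe sets and on the 6 h pair. The mean of the 7 gave 0.33 (limma adjusted p = 0.203), with 4 of the other 6 under 3.5 on every array, and without the 6 h pair the difference was 1.17 (0.394) and 0 genes passed anywhere.

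**Figure D3:**
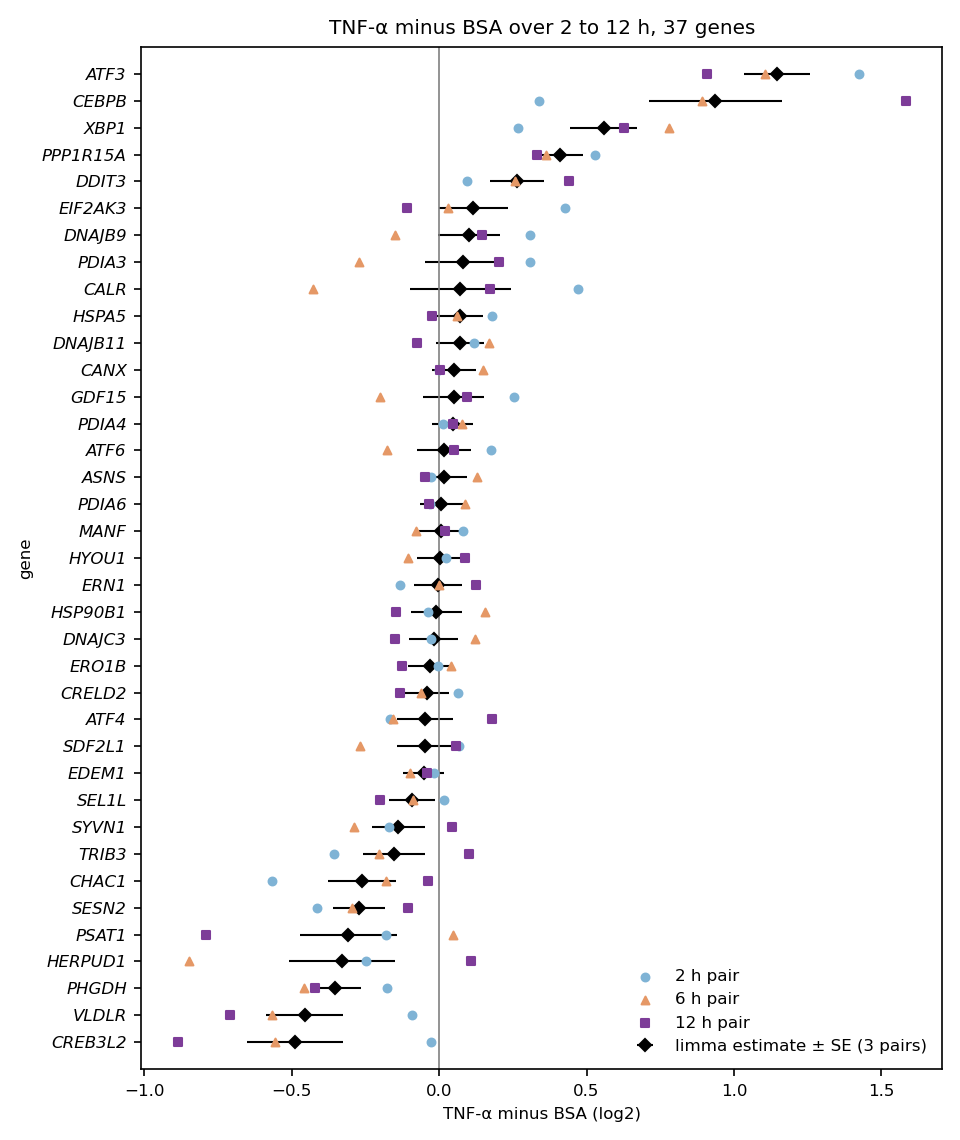
TNF-α minus BSA (log2) for the 37 genes, sorted; black diamonds are the limma estimates over 2, 6 and 12 h with their SE (3 pairs of arrays) and coloured points the single pairs. ATF3, at 1.15, is the highest and CREB3L2, at −0.49, the lowest, and most genes lie close to 0.

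CEBPB, the gene of the inflammation-linked factor C/EBPβ, read 9.10, 8.42, 8.11 and 10.06 with BSA and 9.44, 9.31, 9.70 and 8.08 with TNF-α. Its difference widened from 0.34 at 2 h to 0.89 at 6 h and 1.58 at 12 h, a mean of 0.94 ± 0.22 that did not pass (limma adjusted p = 0.217). In this fit such a widening counts as spread. XBP1 differed by 0.27, 0.78 and 0.63 (mean 0.56 ± 0.11, 0.183) and PPP1R15A by 0.53, 0.36 and 0.33 (mean 0.41 ± 0.08, 0.172), each higher in 3 of 3 pairs. DDIT3 differed by 0.10, 0.26 and 0.44 (mean 0.26, limma adjusted p = 0.304). Its other probe set differed by −0.34, 0.59 and 0.97, so the sign at 2 h depends on the probe set.

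On the lower side, CREB3L2 read 9.32, 8.93, 9.25 and 10.12 with BSA and 9.29, 8.37, 8.36 and 9.96 with TNF-α, differing by −0.03, −0.56 and −0.89 at 2, 6 and 12 h (mean −0.49, limma adjusted p = 0.298). VLDLR differed by −0.09, −0.57 and −0.71 (mean −0.46, 0.254), PHGDH by −0.18, −0.46 and −0.42 (mean −0.35, 0.221) and SESN2 by −0.41, −0.30 and −0.11 (mean −0.27, 0.283), all lower in 3 of 3 pairs. The other probe set of SESN2 differed by −0.64, −1.03 and −0.34. CHAC1 was 0.57 lower at 2 h and 0.04 lower at 12 h. PSAT1 differed by −0.18, 0.05 and −0.79 (mean −0.31, limma adjusted p = 0.461), and at 12 h its 8 probe sets lay between −1.21 and −0.33. Without the 2 h pair 5 members passed among 1094 genes, ATF3 (1.01), CEBPB (1.24), XBP1 (0.70), CREB3L2 (−0.72) and VLDLR (−0.64).

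Most folding and degradation genes lay near 0. Their mean differences over 2 to 12 h had medians of 0.01 (15 folding genes) and −0.11 (4 degradation genes). In limma none of the 19 had an unadjusted p under 0.05, beside 2554 of all 18239 genes. HSPA5 differed by 0.18, 0.06 and −0.02, HSP90B1 by −0.04, 0.15 and −0.15, PDIA4, a protein disulphide isomerase, by 0.01, 0.08 and 0.05, and PDIA6, another, by −0.03, 0.09 and −0.03. The 6 probe sets of HSPA5 ranged from 0.18 to 0.48 at 2 h, −0.11 to 0.19 at 6 h and −0.16 to 0.40 at 12 h. HYOU1, a large ER chaperone, SDF2L1, a cofactor of BiP, MANF, a secreted ER factor, and CRELD2, an ER stress-induced secretory protein, lay between −0.27 and 0.09 at these times. DNAJB11, another co-chaperone of BiP, lay between −0.08 and 0.17, and CANX was at most 0.15 from 0. HERPUD1 and CALR were the exceptions in size. HERPUD1 differed by −0.25, −0.85 and 0.11 at 2, 6 and 12 h, with all 4 of its probe sets below 0 at 6 h, and CALR by 0.47, −0.43 and 0.17. The 3 sensors differed by at most 0.43, which was EIF2AK3 at 2 h.

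With the 24 h pair added, 0 of 37 members passed in limma over 2 to 24 h. Of all genes 0.0164% were called higher and 0% lower. An unadjusted p under 0.05 in this fit was found for 3 members, all lower, beside 1369 of 18239 genes, 618 of them lower. At single times, where there is no test, the members at least 2-fold higher with TNF-α were ATF3 at 2 h (all genes 0.493%), ATF3 at 6 h (1.38%) and CEBPB at 12 h (1.29%). On the brightest probe sets 0 members were 2-fold lower before 24 h (all genes 0.0439%, 0.384% and 0.839%). By probe set, 1 of SESN2 was at least 2-fold lower at 6 h (−1.03, all probe sets 0.267%). At 12 h 2 of PSAT1 were (−1.18 and −1.21, all probe sets 0.614%). At 24 h 14 of 37 members were at least 2-fold lower and 0 higher, against 6.67% and 6.1% of all genes. The median over members was −0.85, and over all genes 0.20. This comparison joins the array that stood apart with the BSA array on which stress genes were high, and neither has a replicate.

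Both sides of the 24 h difference can be read from the arms. GDF15 (−4.56), TRIB3 (−2.76) and DDIT3 (−2.09) were lower than BSA, and against its own 2 h array the TNF-α 24 h array differed by −0.38, −0.55 and 0.92, where BSA at 24 h was 4.43, 1.86 and 3.10 above its own. For GDF15 the sign with TNF-α depends on the probe set, since the pair with 2 identifiers was 1.45 and 1.03 higher at 24 h than at 2 h. PDIA3 (−2.32), SDF2L1 (−1.92), HYOU1 (−1.58), CALR (−1.56) and HSPA5 (−1.56) were also lower than BSA, and here TNF-α at 24 h differed from TNF-α at 2 h by −1.56 to −2.57, while with BSA the same interval gave −0.49 to 0.06. XBP1 (−2.59), CEBPB (−1.99) and ATF3 (−1.95) were low on the TNF-α array at 24 h against both. The 3 sensors were 0.53 (ERN1) to 0.98 (ATF6) higher.

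In each arm against its own 2 h array, 5 members with BSA were at least 2-fold lower at 6 h (all genes 0.965%) and 4 at 12 h (0.345%). With TNF-α they were 4 at 6 h (1.1%) and 2 at 12 h (1.22%). CALR with BSA at 6 h was the 1 member at least 2-fold higher in these 4 comparisons (all genes 0.477%). With TNF-α at 24 h 9 were lower (7.29%) and 3 higher (11.4%), the 3 being ATF6, PSAT1 and ERO1B. For ATF6 and PSAT1 the sign depends on the probe set. The others of ATF6 differed by −1.30 and −0.67, and those of PSAT1 lay between −1.87 and 1.17. All of ERO1B were above 0.

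Different probe sets of a gene read different stretches of its transcript, so their agreement bears on each 24 h value. At 24 h the probe sets of 13 of the 27 members with 2 or more had the same sign in TNF-α minus BSA (48.1%, all genes 50.6%). The median range between a gene's probe sets was 1.48, and in 10 of 27 members (37.0%) it was 2 or more, against 1537 of all 11822 such genes. At 12 h the median range was 0.22 and in 0 of 27 members it reached 2 (all genes 0.313%). The sign was the same in 9 of 27 members at 12 h (33.3%, all genes 48.1%). At 2 h and at 6 h it was the same in 15 of 27 (55.6%, all genes 38.8% and 46.5%), with median ranges of 0.23 and 0.29. So the range was wider at 24 h than at any earlier time. The agreement in sign at 24 h lay above that of 12 h and below that of 2 and 6 h.

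HSPA5 was the widest. Its 6 probe sets differed at 24 h by −0.15 to −5.76, all lower. The smallest difference was on a probe set that read 7.31 with BSA and 7.16 with TNF-α, and the widest on 1 that read 8.78 and 3.01. PDIA6 ranged from −0.15 to −4.13, PSAT1 from 0.02 to −3.26 over 8 probe sets, PDIA4 from −1.13 to −3.11 and CANX from 0.41 to −2.62 over 9. PDIA3 (0.57 and −2.32), CALR (0.26 and −1.56), DNAJB9 (0.22 to −2.16), ATF6 (0.98 to −1.45) and EIF2AK3 (0.84 to −1.21) held probe sets on both sides of 0 beyond 0.2, as did HSP90B1 (0.38 to −1.97). So did ERO1B (0.996 to −0.48), SEL1L (0.58 to −0.56), DNAJC3 (0.38 to −0.85) and EDEM1 (0.23 to −0.57). For these genes and for CANX the sign at 24 h depends on the probe set.

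In DDIT3 (−1.96 and −2.09), TRIB3 (−2.40 and −2.76), SESN2 (−0.51 and −1.33) and ASNS (−0.97 to −2.09 over 4) all probe sets were lower and the range was under the members' median. GDF15 was lower on its own probe set (−4.56) and on the pair with 2 identifiers (−2.92 and −1.89), and HERPUD1 on all 4 (−0.12 to −1.57). In ATF3 the brightest gave −1.95 and the other 6 lay between −0.37 and 0.11. How much of each difference the wide 3′ to 5′ gap of this array makes was not tested.

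**Figure D4:**
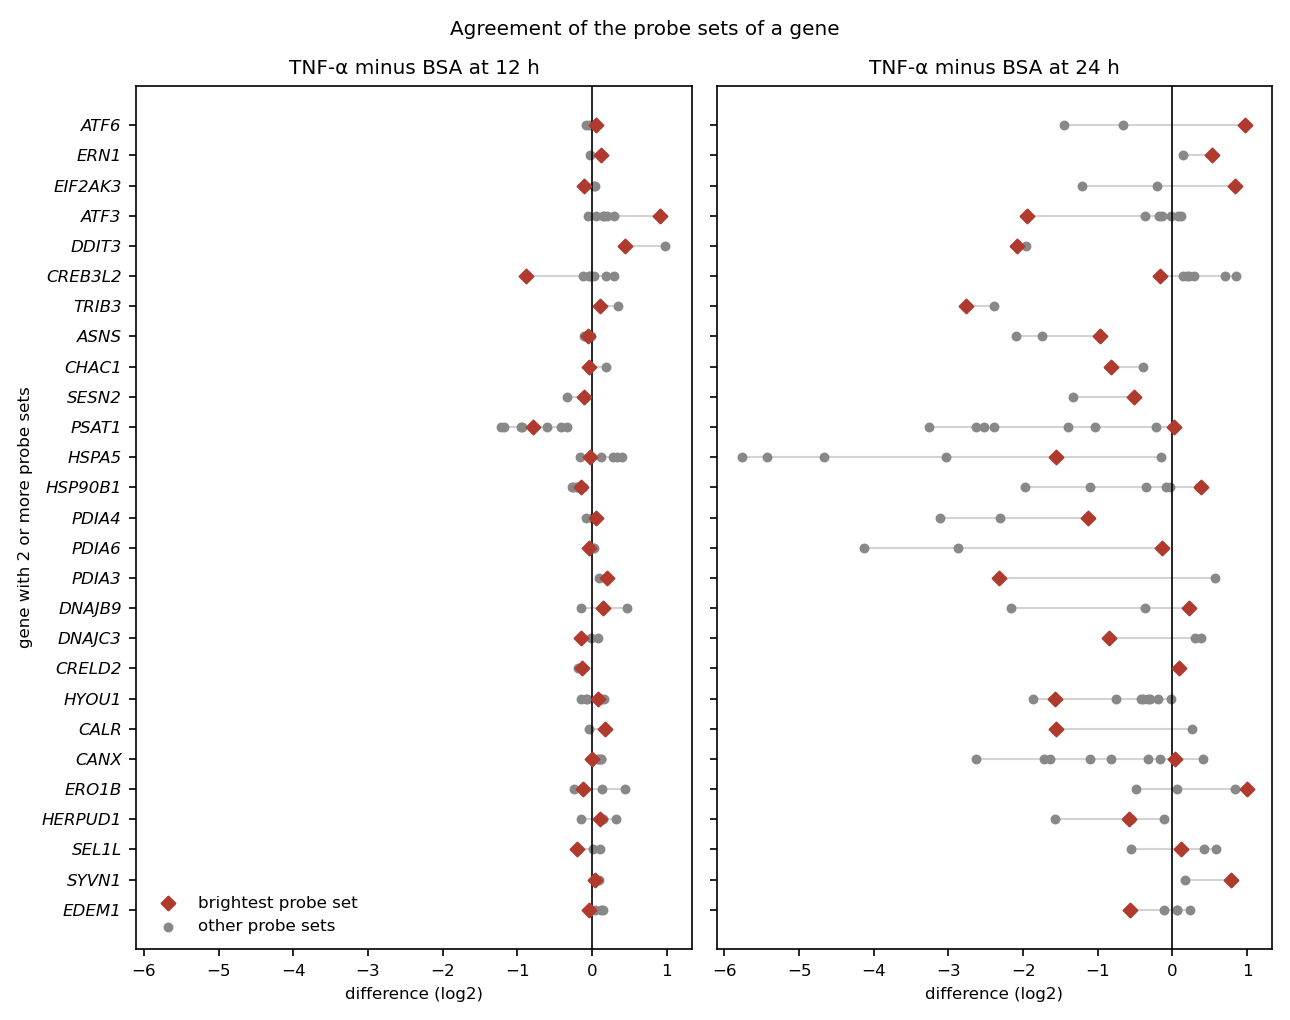
TNF-α minus BSA (log2) of every probe set of the 27 members with 2 or more, at 12 h (left) and 24 h (right); red diamonds are the brightest probe set, grey points the others and grey lines their range. At 12 h the points of a gene lie close together (median range 0.22), and at 24 h they spread (1.48), most in HSPA5.

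The wider pathway was described by 7 lists of 79 measured genes beyond the 37. In TNF-α minus BSA over 2 to 12 h 0 of the 79 passed in limma. An unadjusted p under 0.05 was found for 8, 1 higher and 7 lower, beside 2554 of all 18239 genes, 891 higher and 1663 lower. The largest differences were DDIT4 (−0.56), an mTORC1 inhibitor, KDELR3 (−0.49), a receptor that returns ER proteins, VEGFA (−0.44), the cystathionine lyase CTH (−0.40), PPP1R15B (0.39), the constitutive counterpart of PPP1R15A, and EIF2AK2 (0.32), the RNA-activated eIF2 kinase PKR. The tryptophanyl-tRNA synthetase WARS1 was 0.23 higher.

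With time, from 2 to 6 h over both arms, 12 of the 79 fell and 2 rose, beside 3.1% of all genes called lower and 2.13% higher. The falls came from 6 of the 7 lists, and 0 of 12 tRNA synthetases were called. The falls included CEBPG (−1.37), a dimer partner of ATF4, STC2 (−1.32), VEGFA (−1.26), FKBP14 (−1.14), a proline isomerase of the ER, CREBRF (−1.08), PPP1R15B (−0.92), SEC24D (−0.84), a coat protein of ER export, CTH (−0.82), HSPA13 (−0.80), ERLEC1 (−0.54), a lectin of degradation, the folate enzyme MTHFD2 (−0.53) and UBXN4 (−0.53). The rises were ATF5 (0.995), itself a translationally controlled factor, and ALDH18A1 (0.61), an enzyme of proline synthesis. From 2 to 12 h 7 fell and 0 rose, beside 0.367% of all genes called lower and 0.241% higher: CTH (−2.51), STC2 (−1.56), VEGFA (−1.41), CARS1 (−1.27), AARS1 (−0.81), PPP1R15B (−0.81) and MTHFD2 (−0.76). CARS1 and AARS1 charge tRNA with cysteine and alanine.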

How the data were processed

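The 8 arrays measured gene expression in NS-SV-AC cells with BSA or TNF-α at 4 times, labelled with biotin by a 3′ kit. The deposited values are log2, 1 per probe set, made by the authors with RMA per the submitters' processing notes. Its software, version and any array batches were not given in the sources used here. Probe sets were named by the platform annotation: of 49386, 45253 had 1 symbol, 1327 several, 2713 none and 93 were controls. The brightest probe set on average stood for its gene, which can favour probe sets high in 1 arm. No pseudocount or further normalisation was applied.

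Tests were two-sided in limma 3.58.1 (R 4.3.3, lmFit and eBayes) over 18239 genes, with Benjamini-Hochberg adjustment and a threshold of 0.05. The fits had 2 (2 to 12 h), 3 (2 to 24 h) and 3 (slopes) residual degrees of freedom. The scripts were tested on simulated data. Members, pathway lists and tests were chosen with earlier results of these data known; the changes from 2 h over both arms and the BSA 24 h against 12 h comparison were added after the values were seen. Named are all members, pathway genes past the threshold or among the 3 largest of their list over 2 to 12 h, NFKBIA, TNFAIP3 and markers. In the closing section genes at least 2-fold apart were named after their values were seen. Alternatives were the mean of probe sets, a filter on dim genes, a variance trend, renewed quantile normalisation and leaving out arrays.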

Additional observations from a re-analysis of the deposited data

Results flagged for a closer look

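ERN1 and PDIA3 were picked out because all later arrays of one arm lay on 1 side of its 2 h array and all later arrays of the other arm on the opposite side. For ERN1, the sensor IRE1, the BSA arrays were below and the TNF-α arrays above, and the mean change from 2 h was 0.35 higher with TNF-α. Its levels lay between 3.65 and 4.17 on all arrays, near the lower quartile of gene means (3.76). The other ERN1 probe set did not show the pattern. At 6, 12 and 24 h it changed by 0.17, −0.13 and 0.01 with BSA, and by 0.13, −0.06 and 0.26 with TNF-α. For PDIA3, an oxidoreductase that works with calnexin, the BSA arrays were above and the TNF-α arrays below, and the mean change was 1.11 lower with TNF-α (−1.11). With TNF-α it changed by −0.01 at 6 h, −0.08 at 12 h and −2.57 at 24 h, so the size comes from the 24 h array, where its other probe set was 0.64 higher than at 2 h. With BSA that other probe set changed by −0.07 at 6 h and −0.12 at 12 h, so the PDIA3 pattern also rests on the brightest probe set. Neither difference between the arms was tested.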

How the results depend on the processing

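With 1 array per treatment and time, the number of arrays limits every value, and the counts of calls moved with the setting. With probe sets averaged by gene the counts were 36 genes and 0 members for TNF-α minus BSA over 2 to 12 h, 63 and 3 for 12 h minus 2 h, 1 gene for TNF-α minus BSA over 2 to 24 h and 5 genes for the TNF-α slope. The same setting gave, of members at least 2-fold apart, 0 higher and 2 lower for BSA 6 h, 2 lower for TNF-α 6 h and 1 higher for TNF-α 24 h against 2 h, and 0 higher for TNF-α minus BSA at 2 and at 6 h. Leaving out the dimmest 25% of genes gave 69 genes and 2 members for 12 h minus 2 h, and 1 gene for the TNF-α slope. A variance trend with intensity gave 160 genes over 2 to 12 h, 17 members for 6 h minus 2 h, 237 genes and 13 members for 12 h minus 2 h, 5 genes over 2 to 24 h, 19 for the TNF-α slope and 6 for the slope difference. With the TNF-α 24 h array the TNF-α slope had 1 gene, and a second quantile normalisation put 2 members at least 2-fold higher at 24 h. Leaving out arrays gave 0 to 1094 genes and 0 to 5 members over 2 to 12 h, 0 to 67 and 0 to 1 over 2 to 24 h (67 and 1 without the 24 h pair), 0 to 1479 and 0 to 14 for 6 h minus 2 h, 0 to 785 and 0 to 15 for 12 h minus 2 h, and 0 for each slope. Where an arm then has 1 array at a time, that array is taken to vary like the others. No called member changed sign in any of these settings. No fit with a replicate block beyond the time factor was made, because each group has 1 array.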

Other observations

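Among the wider lists, amino acid synthesis, tRNA charging and the other transcription factors held genes with high values in BSA at 24 h. Against 12 h, where 2.63% of all genes were at least 2-fold higher, 5 of 10 genes of amino acid synthesis and related ATF4 targets were at least 2-fold higher and 0 lower, with a median of 1.04, and 10 of 10 were above 0. CTH, which makes cysteine from cystathionine, read 7.12, 6.43, 4.93 and 8.91 with BSA at 2, 6, 12 and 24 h and 7.02, 6.07, 4.19 and 8.26 with TNF-α. It was lowest at 12 h in both arms and highest at 24 h in both, the array that stood apart included. STC2, a secreted stress glycoprotein, was 2.56 higher with BSA at 24 than at 12 h, VEGFA 2.05 and the one-carbon enzymes MTHFD2 and SHMT2 1.22 and 1.16.

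Of 12 tRNA synthetases 5 were at least 2-fold higher with BSA at 24 than at 12 h, with a median of 0.97 and 11 of 12 above 0. They were CARS1 (2.05), LARS1 (1.67), IARS1 (1.24), AARS1, which read 8.05 at 12 h and 9.25 at 24 h, and TARS1 (1.01). Of 10 other transcription factors 3 were at least 2-fold higher and 0 lower, among them CEBPG (1.75) and NUPR1 (1.19) beside CREBRF, with a median of 0.21. The genes of translocation and of the eIF2 kinases had medians of 0.10 and 0.00 and 0 genes past 2-fold over the same interval. In ER-associated degradation beyond the members, 0 of 13 were 2-fold higher and VCP, the segregase that pulls proteins from the ER, differed by −1.42, and in the wider folding list GANAB, a glucosidase that trims N-glycans, differed by −1.51. These values come from 1 array per time, with no test.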
